A study of Homo sapiens with 12 samples.

Results

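RNA from KYSE150 cells that carried GFP-TFAP2β-Mut_IDR3, an altered form of the transcription factor TFAP2β fused to GFP, was compared with RNA from KYSE150 cells that carried GFP alone. KYSE150 is an established human esophageal squamous cell carcinoma line. The comparison sets 3 libraries of each group against each other, 6 of the 12 libraries of the study, taken by their labels. It covers the 14792 of 24302 features that passed a low-count filter. That filter and the spread behind the p-values came from all 12 libraries, fitted together. The other 6 libraries are 3 from cells with the unaltered GFP-TFAP2β (written WT here) and 3 from cells with GFP-TFAP2β-ΔIDR3 (written dIDR3). They also serve to show where the response to Mut_IDR3 differed. All 4 groups share the cell line and the GFP tag. Both altered forms are described by the submitters as deficient in phase separation. The labels do not give the residues altered in Mut_IDR3, how the constructs were delivered, or whether the libraries of a group came from separate cultures, and the p-values speak only of variation among these libraries, which may be technical.

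TFAP2β, the product of TFAP2B, belongs to the AP-2 family of transcription factors, which bind GC-rich sites as dimers and act in neural crest, skin, kidney and limb development. Its relatives TFAP2A and TFAP2C are the main AP-2 factors of squamous epithelia, where they take part in keratin expression. CITED proteins are co-activators of the family. An intrinsically disordered region (IDR) is a protein stretch without a fixed fold, and such regions can let a factor gather into condensates by phase separation. The design text states that the study asks which genes depend on that property.

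TFAP2B was checked first. It read 0, 0.279 and 0.0924 CPM (counts scaled to a common library size) in the 3 GFP libraries and 687, 732 and 687 CPM in the 3 Mut_IDR3 libraries. Every library of the 2 groups matched its label in this respect, although TFAP2B cannot tell the altered forms from WT. The log2 difference was 12.49 ± 0.24 (SE; adjusted p = 8.64e-14), against 13 counts in the GFP group in all, so its exact size rests on few counts. The level did not differ beyond its spread from that of dIDR3 (704 ± 62.8 CPM, SD, n = 3; log2 difference -0.01 ± 0.11, adjusted p = 0.989). It was 2.5-fold that of WT (280 ± 45.6 CPM, SD, n = 3; log2 difference 1.32 ± 0.12, adjusted p = 5.11e-07). This gap in transgene transcript stands beside every difference from WT given here, and its part in them was not tested.

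Of the 14792 features, 1657 rose (11.2%) and 1457 fell (9.85%) in Mut_IDR3 against GFP, 21.1% together, at an adjusted p under 0.05 in edgeR's quasi-likelihood test. The changes were small. The median absolute log2 change of the called features was 0.35, a 1.28-fold change, and 66 features rose (0.446%) and 92 fell (0.622%) at least 2-fold. Fewer were called when single libraries were left out: 919 rose and 647 fell without Mut_IDR3 replicate 2, 1224 and 943 without Mut_IDR3 replicate 3, and 898 and 803 without GFP replicate 3. The libraries held 30.65 M to 42.9 M counts. Mitochondrially encoded transcripts took 10.3% ± 0.408 (SD, n = 3) of the counts in GFP and 8.36% ± 0.235 (SD, n = 3) in Mut_IDR3.

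The direction of change followed the base composition of the transcripts. In decile 1 of transcript GC content (1273 genes, 31.3% to 38.6% GC), 1.1% rose and 32.9% fell, with a median log2 change of -0.27. In decile 8, 23.9% rose and 2.59% fell. Across 12724 genes Spearman's rho between GC content and log2 change was 0.428, which describes genes of the same libraries and not independent replicates. When the GC trend of each library was removed, 1181 genes rose and 1048 fell, and 1489 of the 3114 calls (47.8%) held with the same sign. Larger changes held more often, with 57 of 66 rises (86.4%) and 75 of 92 falls (81.5%) of at least 2-fold. The gradient was not particular to Mut_IDR3. Against the same GFP libraries the median log2 change in decile 1 was -0.665 in WT and -0.17 in dIDR3. In decile 8 it was 0.302 in WT, 0.14 in Mut_IDR3 and 0.0923 in dIDR3. Whether the gradient arose in the cells or in the preparation of the libraries was not tested. Calls also varied with transcript length and with level. In the longest decile 5.42% rose and 24.5% fell, and in the shortest 13.2% and 3.22%. In the decile of highest mean CPM 33.2% rose and 7.5% fell, and in the lowest 0.473% and 1.42%. The part of length and level in the list counts was not tested. Over all features 11.2% rose and 9.85% fell, the shares beside which each list's count stands. Most gene lists below are given against GFP with and without the GC trend. Subgroups of a list and the counts against WT and dIDR3 are from the counts as deposited. Counts called in Mut_IDR3 against GFP with 1 of the 6 libraries left out are added where they moved over 1.5 times and the list had at least 4 calls in that direction.

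**Figure D1:**
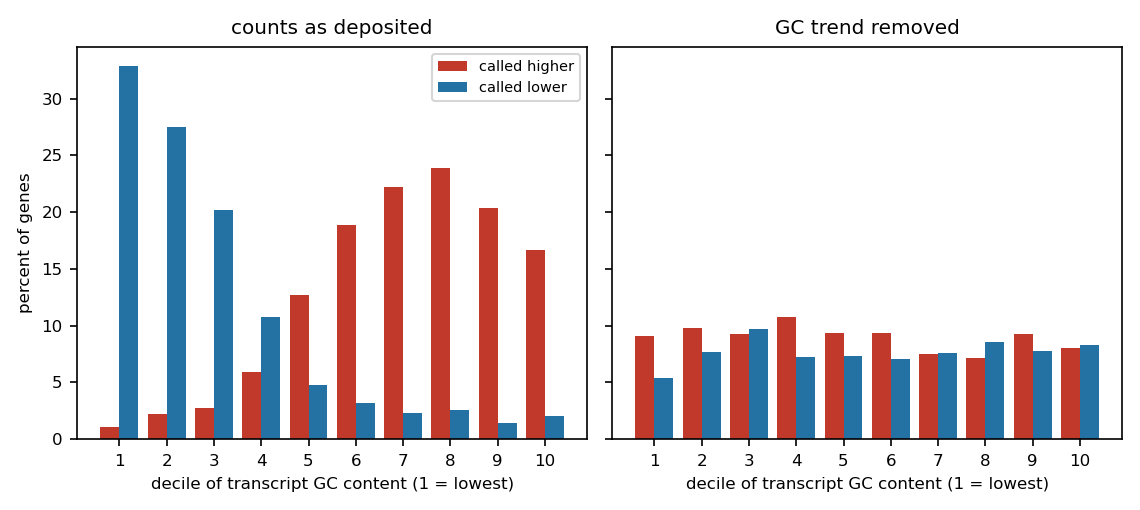
Percent of genes called higher (red) and lower (blue) in Mut_IDR3 against GFP in each decile of transcript GC content, from the counts as deposited (left) and with each library's GC trend removed (right). On the left 32.9% of the genes of decile 1 were called lower and 1.1% higher.

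KRT14 fell 4.05-fold in Mut_IDR3. The gene, which encodes keratin 14 of the basal squamous layer (ENSG00000186847, GRCh38 chr17:41582279-41586921, minus strand), read 229.7, 225.6 and 226.5 CPM in GFP and 55.5, 59.1 and 53.9 CPM in Mut_IDR3. All 3 Mut_IDR3 libraries lay far below all GFP libraries, and replicates differed little. The log2 change was -2.02 ± 0.06 (SE; adjusted p = 3.51e-11). In WT the same gene stood at 806 ± 68.1 CPM (SD, n = 3), above GFP, and in dIDR3 at 46.6 ± 1.65 CPM (SD, n = 3), below it. Its partner keratin KRT5 did not pass the test in Mut_IDR3 (3416 CPM in GFP and 3625 CPM in Mut_IDR3, adjusted p = 0.255). TP63, the master factor of the basal layer, stood at 162 CPM in both groups (adjusted p = 0.981).

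Genes of squamous differentiation that changed were mostly lower in Mut_IDR3. Of 26 tested members 9 fell and 1, KLF4, rose, with a median log2 change of -0.16 against -0.01 over all features. Without the GC trend 10 fell and 0 rose. The serine proteases of the kallikrein family that loosen the cornified layer were among them: KLK5 fell from 618 to 459 CPM (log2 -0.43 ± 0.05, adjusted p = 0.000132), and KLK8 from 5.56 to 1.99 CPM (log2 -1.48 ± 0.25, adjusted p = 0.00127). KRT13, the keratin of the upper esophageal layers, read 6.81, 7.45 and 6.31 CPM in GFP and 4.12, 2.89 and 2.18 CPM in Mut_IDR3. The groups did not overlap, although the Mut_IDR3 libraries spread widely (log2 -1.17 ± 0.26, adjusted p = 0.00636). S100A9, an alarmin of stressed epithelium, fell by 1.07 on the log2 scale (adjusted p = 0.00334). ZNF750, a driver of terminal differentiation, fell by 1.28 (adjusted p = 0.00696).

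Of 24 tested genes of the basal squamous layer 6 fell and 1 rose (median log2 change -0.06; without the GC trend 11 fell and 2 rose). Besides KRT14 the falls included DST, which anchors keratin at hemidesmosomes (log2 -0.79, adjusted p = 0.00434), LAMA3, a laminin-332 chain (log2 -0.40, adjusted p = 0.00323), NGFR, a receptor of basal progenitors (log2 -0.64, adjusted p = 0.00326), and the integrin chain ITGB1 (log2 -0.43, adjusted p = 0.00221). The factor SOX15 rose (log2 0.29, adjusted p = 0.00374). In the list of simple epithelial keratins, which also held the hair-type keratin KRT81, 3 of 5 tested members rose and 1 fell, also without the GC trend. KRT18 read 2103, 2003 and 1969 CPM in GFP and 2748, 2689 and 2712 CPM in Mut_IDR3 (log2 0.42 ± 0.05, adjusted p = 7.23e-05), with all Mut_IDR3 libraries higher. Its partner KRT8 rose by 0.40 ± 0.06 (adjusted p = 0.000868). The 1 fall was that of KRT81, by 0.88 (adjusted p = 0.00253).

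Among 31 tested genes of cell junctions 5 rose and 3 fell (without the GC trend 5 and 4), and each fit without 1 library called 2 or 3 rises. The shares in the full fit lay near the 11.2% and 9.85% of all features that rose and fell. The adherens cadherin CDH1 rose (log2 0.26, adjusted p = 0.00317) as did plakoglobin, JUP (log2 0.25, adjusted p = 0.0195). The call of JUP was lost without Mut_IDR3 replicate 1 (0.24, adjusted p = 0.0619) or 2 (0.25, adjusted p = 0.0682) and without GFP replicate 2 (0.21, adjusted p = 0.0834) or 3 (0.23, adjusted p = 0.0734). In contrast the desmosomal cadherins DSG2 (log2 -0.32, adjusted p = 0.00228) and DSG3 (log2 -0.54, adjusted p = 0.00263) fell. Of the 10 genes used as squamous cell markers 3 fell, KRT14, DSG3 and SERPINB5 (log2 -0.41, adjusted p = 0.000511), and none rose, with 6 falls and 1 rise without the GC trend. Their summed level was 5270 to 5510 CPM in GFP and 5320 to 5510 CPM in Mut_IDR3, most of it from KRT5 and KRT17, so the sum says little of the other markers. All 10 had counts.

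**Figure D2:**
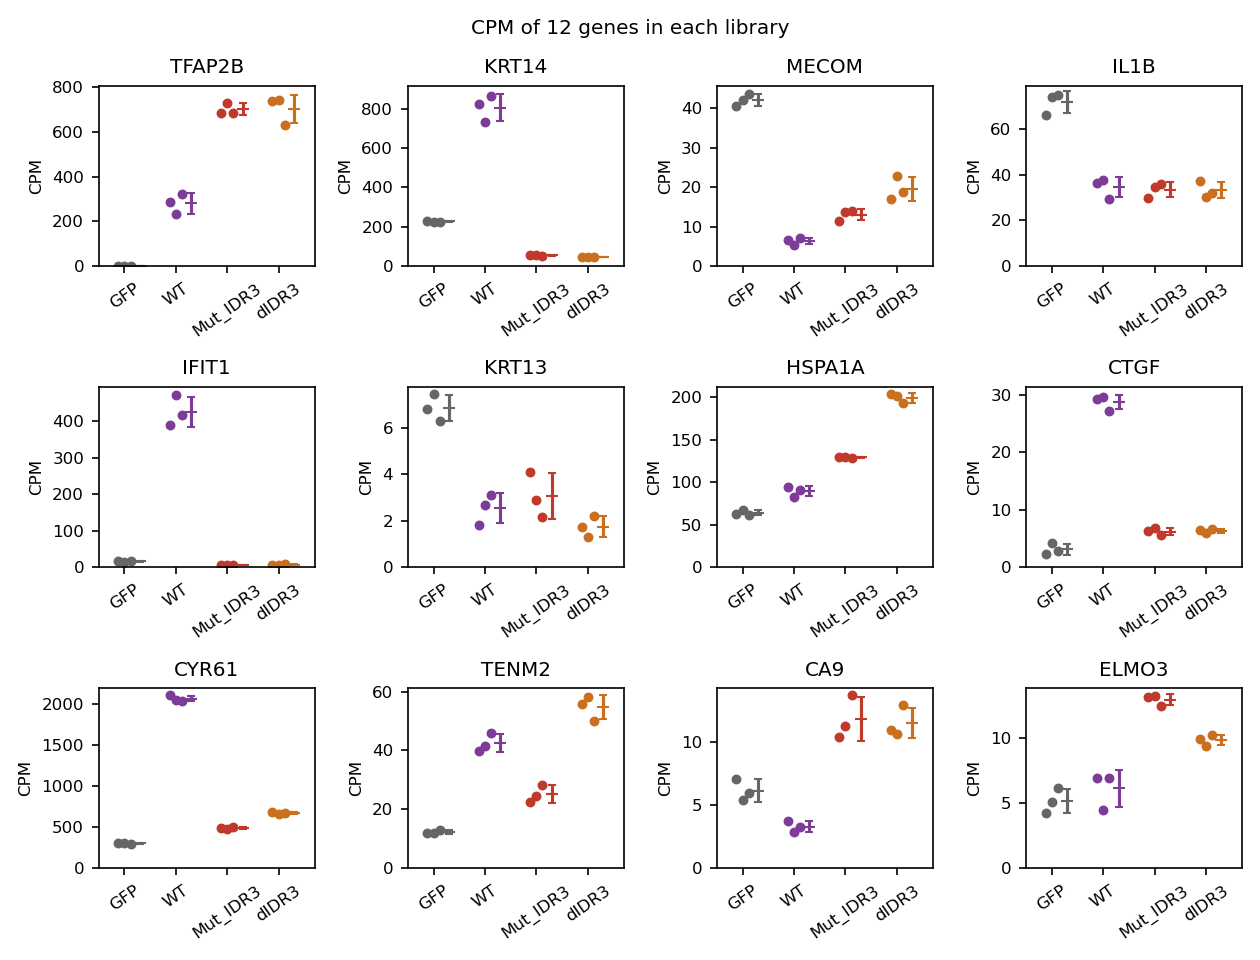
CPM of 12 genes in each library of the 4 groups (points, 1 per library) with the group mean and SD beside them (n = 3). KRT14 lies at 53.9 to 59.1 CPM in Mut_IDR3 and at 225.6 to 229.7 CPM in GFP, and CYR61 at 479.6 to 498.9 CPM against 291.8 to 306.8 CPM.

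IL1A, IL1B, IL1RN and CASP1 fell in Mut_IDR3, 4 genes named for their change rather than taken from a list of that family. IL1B, encoding interleukin 1 beta, read 66.2, 73.9 and 74.7 CPM in GFP and 29.6, 34.5 and 35.8 CPM in Mut_IDR3, with no overlap (log2 -1.10 ± 0.11, adjusted p = 3.22e-05). IL1A read 15.4, 14.5 and 17.6 CPM in GFP and 7.91, 8.63 and 8.14 CPM in Mut_IDR3 (log2 -0.94 ± 0.10, adjusted p = 6.47e-05). IL1RN, the receptor antagonist that opposes both, had the largest fall among the genes named here, from 7.24, 6.21 and 5.36 CPM to 1.51, 0.808 and 1.28 CPM. Every Mut_IDR3 library lay under every GFP library for the 3 genes. The change of IL1RN was -2.39 ± 0.24 on the log2 scale (adjusted p = 3.47e-05). CASP1, which cleaves the precursor of interleukin 1 beta, fell by 1.08 ± 0.20 (adjusted p = 0.00199), and the acute-phase gene SAA1 by 1.14 ± 0.24 (adjusted p = 0.00492). These 5 calls also held without the GC trend.

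NF-kB is a family of dimeric factors that drive inflammatory genes. Of 32 tested members 5 rose and 4 fell, near the 11.2% and 9.85% of all features (median log2 change 0.10). Without the GC trend the counts were also 5 and 4 (median -0.04). In the counts as deposited the 5 rises became 2 without Mut_IDR3 replicate 2 and 3 without GFP replicate 1 or 2. Among the secreted factors 3 of 13 fell, IL1A, IL1B and the chemokine CCL5, and none rose. CCL5 was low in both groups, at 2.98 CPM in GFP and 0.716 CPM in Mut_IDR3 (log2 -2.0 ± 0.19, adjusted p = 2.95e-05). Among the pathway genes the subunits NFKB1 (log2 0.39, adjusted p = 0.00094) and RELA (log2 0.38, adjusted p = 0.00437) rose, and REL fell (log2 -0.74, adjusted p = 0.00421).

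Interferon-stimulated genes that changed were mostly lower in Mut_IDR3 than in GFP. Type I and III interferons signal from their receptors to a short promoter element, the interferon-stimulated response element (ISRE), and switch on RNA sensors and antiviral effectors. Of 46 tested genes of this group 19 fell (9.85% of all features fell), 3 rose and 24 were not called, with a median log2 change of -0.32. Without the GC trend 19 fell and 1 rose (median -0.29). The mean log2 level of the list relative to the GFP mean was -0.57, -0.45 and -0.40 in the 3 Mut_IDR3 libraries and -0.05, 0.03 and 0.02 in the GFP libraries. None of the 7 tested interferon and receptor genes was called. The low-count filter took in all groups, and a fit of only the 2 groups compared tested 3 genes of this list and called 1 lower. The 4 ligands had a median log2 change of 0 here and of 10.61 in WT against GFP. Their place among the tested genes may thus rest on their level in WT, and the value of 10.61 is no independent result. The absence of a call therefore says little of the ligands.

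Promoters of 3 genes are shown, since IFIT1 and DDX60 fell and hold the ISRE letters while ELMO3 rose and holds the AP-2 letters. Each is the 250 bases before the RefSeq start (GRCh38.p14), 5′ to 3′ on the strand of the gene. Capitals mark GAAANNGAAA, the ISRE core, in IFIT1 and DDX60 and GCCNNNGGC, the palindromic AP-2 core, in ELMO3, on either strand.
IFIT1, chr10:89392373-89392622, plus strand: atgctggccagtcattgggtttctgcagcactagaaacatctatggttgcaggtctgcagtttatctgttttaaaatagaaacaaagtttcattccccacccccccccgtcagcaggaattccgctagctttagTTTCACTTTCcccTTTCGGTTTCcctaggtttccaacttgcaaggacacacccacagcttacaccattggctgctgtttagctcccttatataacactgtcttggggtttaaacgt
DDX60, chr4:168318753-168319002, minus strand: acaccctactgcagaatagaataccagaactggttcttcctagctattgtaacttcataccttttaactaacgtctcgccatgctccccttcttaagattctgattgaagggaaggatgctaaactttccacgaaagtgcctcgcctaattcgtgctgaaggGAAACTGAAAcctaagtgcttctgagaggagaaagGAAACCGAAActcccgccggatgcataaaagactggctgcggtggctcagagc
ELMO3, chr16:67198881-67199130, plus strand: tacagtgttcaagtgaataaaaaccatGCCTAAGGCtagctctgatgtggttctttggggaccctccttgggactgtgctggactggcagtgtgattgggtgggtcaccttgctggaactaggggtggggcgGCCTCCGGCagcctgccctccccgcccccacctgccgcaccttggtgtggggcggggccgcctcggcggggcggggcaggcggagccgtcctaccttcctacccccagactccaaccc

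The ISRE letters stood in 54.3% of the 35 interferon-stimulated genes with a promoter in the RefSeq table and in 2.33% of the 10200 tested genes with one. They were in 8 of the 14 such genes that fell (57.1%) and in 11 of the 21 that were not called lower (52.4%). The AP-2 letters occurred in 27.5% of all tested promoters, in 30.4% of those of genes that rose and in 23.6% of those of genes that fell. For changes of at least 1.5-fold the shares were 28.6% and 21.9%. The AP-2 letters are rich in G and C. Median promoter GC content was 65.3% over all tested genes, 67.3% for genes that rose and 63.3% for genes that fell. The part of GC content in these shares was not tested. These matches describe the letters alone, and they do not show binding.

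IFIT1, an antiviral RNA-binding protein (ENSG00000185745, GRCh38 chr10:89392546-89406486, plus strand), read 16.3, 15.2 and 17.5 CPM in GFP and 7.17, 7.27 and 7.19 CPM in Mut_IDR3. The groups were far apart and the Mut_IDR3 libraries nearly equal (log2 -1.18 ± 0.08, adjusted p = 1.06e-06). DDX60, which assists RNA sensing, read 9.21, 6.86 and 10.7 CPM in GFP and 4.63, 2.97 and 3.99 CPM in Mut_IDR3 (log2 -1.22 ± 0.20, adjusted p = 0.0012). IFIT3 fell by 1.03 ± 0.15 (adjusted p = 0.000421) and IFIT2 by 0.94 (adjusted p = 0.000453). OAS1, which makes the activator of RNase L, fell by 0.97 (adjusted p = 0.000139), and its relative OASL by 0.65 ± 0.08 (adjusted p = 0.0002). Of 5 RNA sensors 3 fell. GBP6, an interferon-induced GTPase, read 10.1, 12.1 and 10.1 CPM in GFP and 3.79, 3.42 and 3.73 CPM in Mut_IDR3, without overlap (log2 -1.56 ± 0.17, adjusted p = 7.56e-05). TRIM22, an antiviral ubiquitin ligase, fell by 1.37 ± 0.28 (adjusted p = 0.00431). The ubiquitin ligase TRIM25 rose instead (log2 0.40, adjusted p = 0.000434). In MHC class I presentation, which interferon also raises, 3 of 15 genes fell and 0 rose (6 and 0 without the GC trend), among them the peptide trimmer ERAP2 (log2 -0.75, adjusted p = 0.000781).

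Of the immediate early genes that changed, all were higher in the counts as deposited. AP-1, a dimer of FOS and JUN family members, turns on genes within minutes of a growth signal. Of 34 tested genes of that list 12 rose and 0 fell (median log2 change 0.23), and 7 rose without GFP replicate 3. Without the GC trend 6 rose and 1 fell, and the calls of FOS (0.63, adjusted p = 0.0816), JUN (0.17, adjusted p = 0.264), IER3 (0.20, adjusted p = 0.0672) and KLF4 (0.23, adjusted p = 0.193) were among those lost. With 1 library left out, FOS was not called in 5 of 6 fits (0.58 to 0.78, adjusted p = 0.0634 to 0.126), JUN in 4 (0.23 to 0.30, adjusted p = 0.0914 to 0.137) and KLF4 in 4 (0.25 to 0.41, adjusted p = 0.0527 to 0.107). CYR61, a secreted matrix protein that is also a target of YAP (ENSG00000142871, GRCh38 chr1:85580761-85583962, plus strand), read 303.4, 306.8 and 291.8 CPM in GFP and 491.1, 479.6 and 498.9 CPM in Mut_IDR3. No library overlapped (log2 0.70 ± 0.04, adjusted p = 8.76e-08). Its relative CTGF read 2.29, 4.16 and 2.82 CPM in GFP and 6.24, 6.75 and 5.64 CPM in Mut_IDR3 (log2 1.01 ± 0.17, adjusted p = 0.00117). The AP-1 subunit FOSL1 rose from 33.7 to 50.9 CPM (log2 0.59 ± 0.07, adjusted p = 7.23e-05) and JUND by 0.46 (adjusted p = 0.000781).

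Mesenchymal genes of cytoskeleton and matrix gave 7 rises and 1 fall among 20 tested, and the whole list of 22 had a median log2 change of 0.27 (7 and 0 without the GC trend). Without GFP replicate 3 the list had 4 rises. THBS1, thrombospondin 1, was the most abundant, with 1332, 1338 and 1317 CPM in GFP and 2051, 2004 and 1992 CPM in Mut_IDR3 (log2 0.60 ± 0.04, adjusted p = 4.43e-07). The receptor kinase AXL rose by 0.33 (adjusted p = 0.000288), tropomyosin TPM2 by 0.72 (adjusted p = 0.00149) and fibronectin FN1 by 0.30 (adjusted p = 0.0197). The call of FN1 was lost without Mut_IDR3 replicate 2 (0.29, adjusted p = 0.0737) and without GFP replicate 2 (0.27, adjusted p = 0.0667) or 3 (0.29, adjusted p = 0.0688). In the list of matrix proteases and their regulators 4 of 14 rose and 0 fell (3 and 1 without the GC trend), including the gelatinase MMP2 (log2 0.51, adjusted p = 0.00137) and the inhibitor TIMP2 (log2 0.50, adjusted p = 7.43e-05). Over all features 11.2% rose and 9.85% fell, not far from the shares of the next 2 lists. Of the 29 YAP and TEAD genes 5 rose and 3 fell (5 and 2 without the trend), with 3 rises without GFP replicate 3. Of 27 TGF-beta genes 4 rose and 2 fell (3 and 1 without the trend), with the activin antagonist FST at 0.76 (adjusted p = 0.000868) and the feedback inhibitor PMEPA1 at 0.63 (adjusted p = 0.00208).

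**Figure D3:**
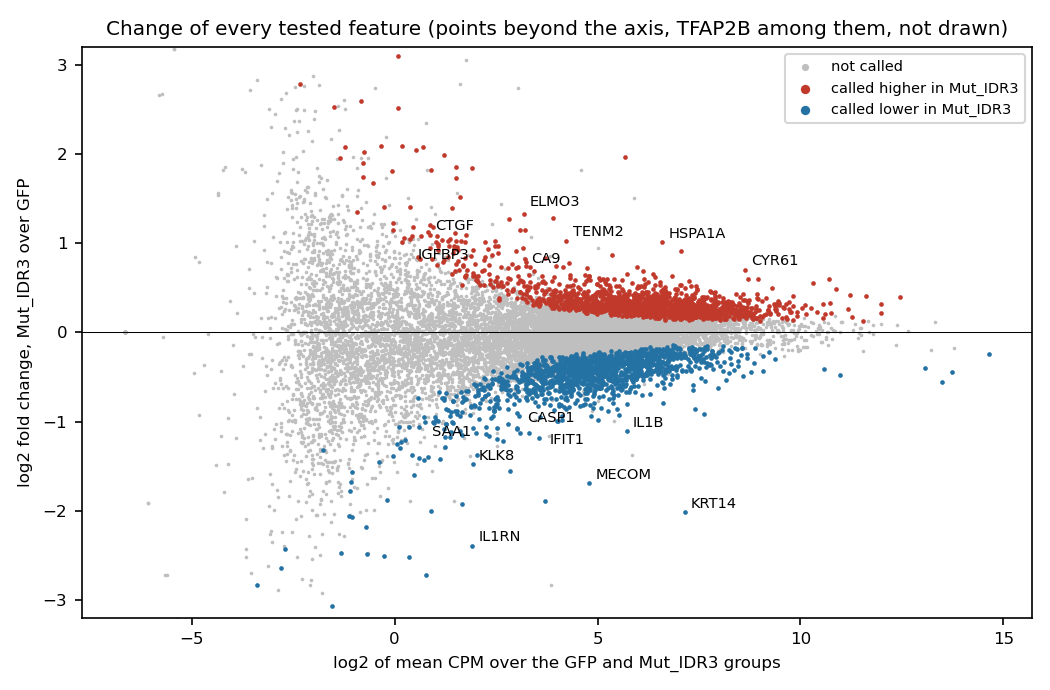
Log2 fold change of Mut_IDR3 over GFP (y axis) against log2 of the mean CPM of the 2 groups (x axis), 1 point per tested feature, with features called higher in red and called lower in blue. The axis ends at 3.2 on either side. KRT14 (-2.02), MECOM (-1.69) and IL1B (-1.10) stand apart among the expressed genes that fell, and HSPA1A (1.01) among those that rose.

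Inducible HSP70, a chaperone of damaged proteins, rose about 2-fold. HSPA1A read 62.9, 67.5 and 61.7 CPM in GFP and 129.6, 129.2 and 128.2 CPM in Mut_IDR3 (log2 1.01 ± 0.06, adjusted p = 7.7e-08). HSPA1B read 91.4, 90.6 and 93.1 CPM in GFP and 165.8, 180.4 and 171.7 CPM in Mut_IDR3 (log2 0.91 ± 0.05, adjusted p = 7.7e-08). Both genes separated the groups fully. They are near-identical neighbours, so reads may be split between them. The constitutive chaperone HSPA8 rose from 1024 to 1502 CPM (log2 0.55, adjusted p = 8.66e-05) and its co-chaperone DNAJB1 by 0.26 (adjusted p = 0.0021). Of 23 heat shock genes 8 rose and 2 fell (7 and 1 without the GC trend), and the mitochondrial chaperonin HSPD1 was among the falls (log2 -0.22, adjusted p = 0.0142). Without Mut_IDR3 replicate 2 (-0.19, adjusted p = 0.0731) or GFP replicate 3 (-0.20, adjusted p = 0.0617) HSPD1 was no longer called.

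The unfolded protein response, which raises chaperones of the endoplasmic reticulum and amino acid supply, gave 12 rises and 3 falls among 36 genes (8 and 1 without the GC trend), and 7 rises without GFP replicate 2. HERPUD1, a part of the degradation machinery of that organelle, read 38.1, 41.7 and 44.3 CPM in GFP and 61.4, 69.5 and 64.8 CPM in Mut_IDR3 (log2 0.66 ± 0.07, adjusted p = 5.19e-05). DDIT4, a stress-induced inhibitor of mTORC1, read 332.3, 335.4 and 331.7 CPM in GFP and 475.5, 524.5 and 513.9 CPM in Mut_IDR3 (log2 0.60 ± 0.06, adjusted p = 2.95e-05). The ranges did not overlap in either case. The chaperone HSPA5 (log2 0.32, adjusted p = 0.000598) and the factor XBP1 (log2 0.40, adjusted p = 0.000653) rose as well, as did PHGDH of serine synthesis (log2 0.39, adjusted p = 0.000517). The call of ATF4 itself (log2 0.18, adjusted p = 0.0188) was lost without the GC trend (0.02, adjusted p = 0.841) and in 5 of the 6 fits that left out 1 library.

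Genes that license and fire replication origins rose more often than they fell. In the counts as deposited, genes of the mitotic spindle fell more often than they rose. Of 48 genes of G1/S and DNA replication 20 rose and 2 fell (median log2 change 0.17), and 22 rose and 1 fell without the GC trend. MCM3, a subunit of the replicative helicase, read 428.4, 420 and 411.7 CPM in GFP and 559.9, 549.9 and 542.3 CPM in Mut_IDR3, without overlap (log2 0.39 ± 0.04, adjusted p = 5.61e-05). MCM5 rose by 0.52 ± 0.07 (adjusted p = 0.000192), MCM2 by 0.46 (adjusted p = 0.000349) and CDC45 by 0.42 (adjusted p = 0.000557). E2F1, the factor that drives them, rose by 0.47 (adjusted p = 0.00258), and the inhibitor CDKN1A by 0.45 (adjusted p = 0.00307). Of the 30 replication genes in it 13 rose and 2 fell. Of 45 genes of G2/M and mitosis 5 rose and 11 fell (6 and 10 without the trend). The 11 falls became 5 without Mut_IDR3 replicate 2 and 6 without Mut_IDR3 replicate 3, GFP replicate 1 or GFP replicate 3. Among 27 spindle and chromosome genes 8 fell and 1 rose, and BUB1 (log2 -0.43, adjusted p = 0.000283), CENPF (log2 -0.86, adjusted p = 0.00935) and TOP2A (log2 -0.64, adjusted p = 0.00466) were lower. Without Mut_IDR3 replicate 2 CENPF missed the threshold (-0.75, adjusted p = 0.0558). The 3 falls were smaller without the GC trend. BUB1 was then at -0.32 (adjusted p = 0.00069), CENPF at -0.71 (adjusted p = 0.0306) and TOP2A at -0.41 (adjusted p = 0.0258). The regulators MYBL2 (log2 0.58, adjusted p = 0.000237), FOXM1 (log2 0.44, adjusted p = 0.000477) and CDC20 (log2 0.39, adjusted p = 0.000349) were higher. Of 27 p53 targets 3 rose and 2 fell (2 and 1 without the trend), near the 11.2% and 9.85% of all features.

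The glycolytic enzymes that changed were all higher in the counts as deposited. Of 21 tested 11 rose and 0 fell, with a median log2 change of 0.26 (11.2% of all features rose and 9.85% fell). With the 14 hypoxia genes the list of 35 had 17 rises and 3 falls, 11 and 1 without the GC trend, and 10 rises without Mut_IDR3 replicate 2 or GFP replicate 1. PKM, pyruvate kinase, read 1607, 1543 and 1533 CPM in GFP and 2167, 2238 and 2149 CPM in Mut_IDR3 (log2 0.48 ± 0.05, adjusted p = 7.43e-05). GPI rose by 0.39 (adjusted p = 0.000252) and ALDOC by 0.74 (adjusted p = 0.000506). CA9, a carbonic anhydrase induced by hypoxia, read 7.1, 5.37 and 5.99 CPM in GFP and 10.4, 11.3 and 13.7 CPM in Mut_IDR3. The Mut_IDR3 libraries were all higher (log2 0.94 ± 0.15, adjusted p = 0.001). The transcript of HIF1A, the oxygen-regulated factor, was lower (log2 -0.33, adjusted p = 0.0484), and that call was lost without the trend (-0.05, adjusted p = 0.699) and in 5 of the 6 fits that left out 1 library.

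Ferritin transcripts rose, and genes of lipid synthesis changed in both directions. FTL rose from 771 to 1024 CPM (log2 0.41 ± 0.04, adjusted p = 7.23e-05) and FTH1 from 1494 to 1882 CPM (log2 0.33 ± 0.04, adjusted p = 0.000132). Together with GCLC of glutathione synthesis, which fell (log2 -0.43, adjusted p = 0.000349), the list of NRF2 and iron genes had 5 rises and 5 falls of 29 (4 and 2 without the trend; 2 to 5 and 2 to 4 over the 6 fits without 1 library). HMGCS1, an enzyme of cholesterol synthesis, fell by 0.38 (adjusted p = 0.000868). SCD (log2 0.27, adjusted p = 0.000446) and FADS1 (log2 0.64, adjusted p = 0.000109), both desaturases of fatty acids, and the factor SREBF1 (log2 0.40, adjusted p = 0.00282) rose. The list of cholesterol and fatty acid synthesis held 7 rises and 7 falls of 30 (4 and 4 without the trend; 4 to 5 and 3 to 7 over the 6 fits without 1 library).

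Of the 13 mitochondrially encoded mRNAs 5 fell and 1 rose (median log2 change -0.21; 5 and 0 without the GC trend). MT-CO2 read 13350, 14540 and 13230 CPM in GFP and 9242, 9092 and 9646 CPM in Mut_IDR3 (log2 -0.56 ± 0.06, adjusted p = 7.23e-05), and MT-ND4 fell by 0.45 (adjusted p = 0.000192). The nuclear genes of the respiratory chain gave 4 rises and 2 falls of 52 (7 and 3 without the trend), and 1 to 3 rises in the 6 fits without 1 library. Cytosolic ribosomal proteins gave 4 rises and 1 fall of 78 (0 and 2 without the trend), and 2 to 3 rises in those fits. Ribosome biogenesis gave 14 and 7 of 46, but 3 and 6 without the trend and 4 to 9 rises with 1 library left out. Splicing factors gave 6 and 4 of 30, with 0 to 3 falls when 1 library was left out, and 12 and 0 without the trend, with HNRNPM (log2 0.36, adjusted p = 0.000243) and SRSF2 (log2 0.34, adjusted p = 0.00143) among the rises in both. Aminoacyl-tRNA synthetases gave 7 and 3 of 37 (4 and 2 without the trend), with 2 rises without Mut_IDR3 replicate 2 or GFP replicate 3. Histones gave 1 and 1 of 20 (1 and 1 without the trend). The shares of all features were 11.2% higher and 9.85% lower.

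**Figure D4:**
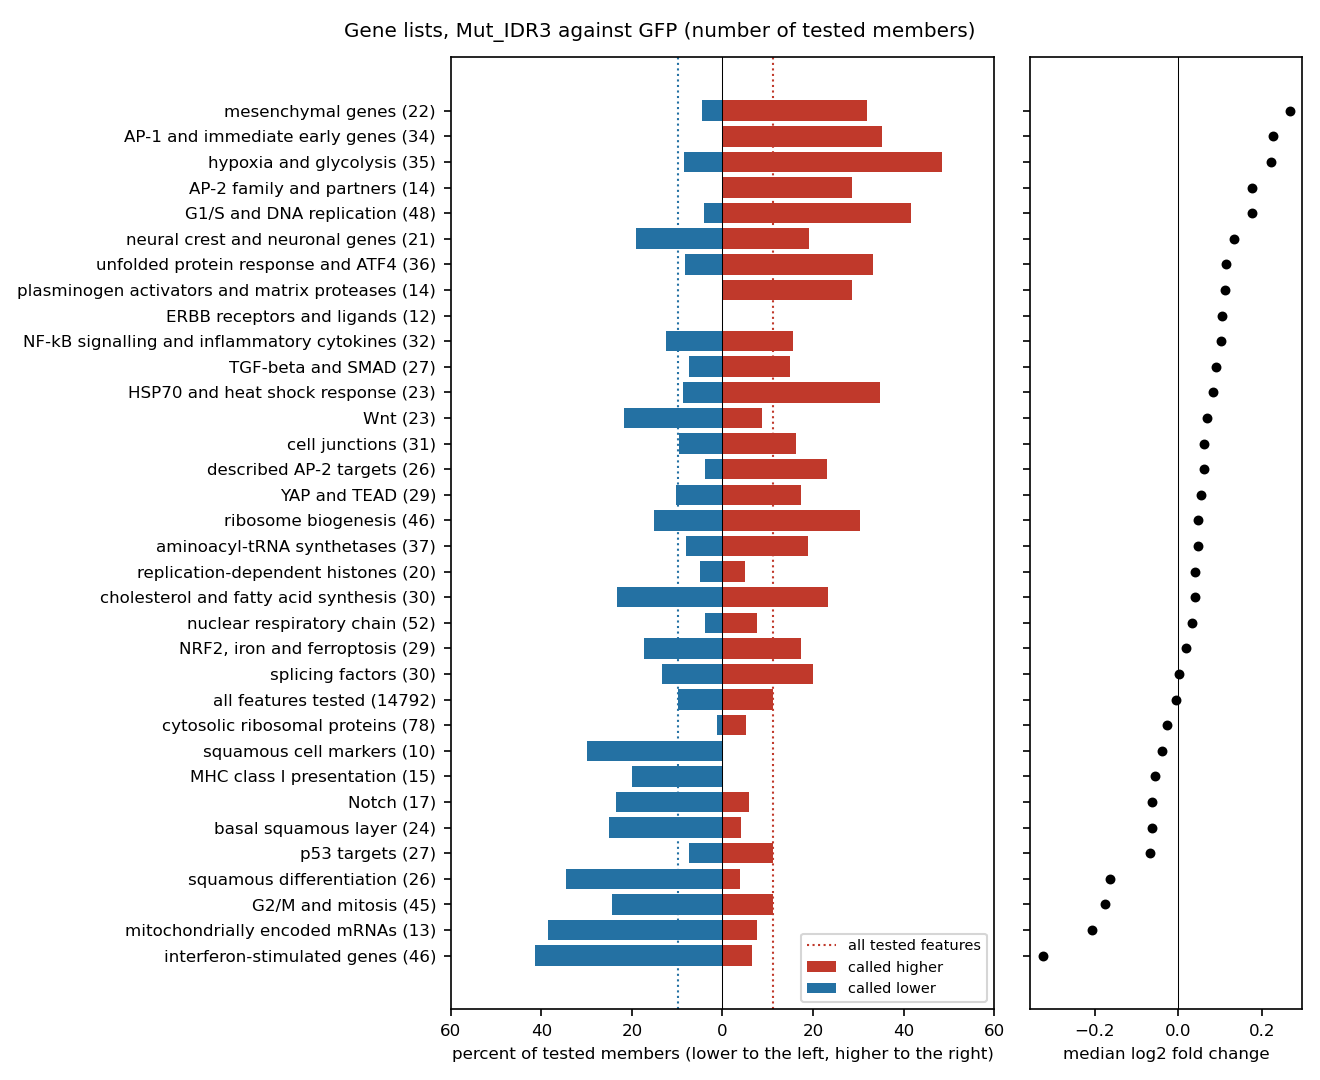
Percent of the tested members of each gene list called higher (red, right) and lower (blue, left) in Mut_IDR3 against GFP, with the share of all tested features as dotted lines, and the list's median log2 fold change in the right panel. Lists with at least 10 tested members are drawn. Interferon-stimulated genes have the lowest median (-0.32) and mesenchymal genes the highest (0.27).

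Of 14 tested AP-2 family genes and partners 4 rose and 0 fell (2 and 1 without the GC trend). Both counts of rises include TFAP2B, the gene the construct carried, so that rise is no response. TFAP2B was the only factor among the 4 rises. The other 3 were among the 10 cofactors and antagonists. TFAP2A read 61.2, 59.4 and 58.5 CPM in GFP and 53, 50.3 and 57.8 CPM in Mut_IDR3, a log2 difference of -0.15 ± 0.06 that did not pass the test (adjusted p = 0.105) but passed it without the GC trend (-0.23, adjusted p = 0.0152). TFAP2C read 32.5, 36.1 and 34.5 CPM and 40.7, 35.3 and 38.5 CPM (log2 0.15 ± 0.09, adjusted p = 0.264). ZNF131, a zinc finger factor, was not called either (log2 -0.24 ± 0.09, adjusted p = 0.0733). The co-activator CITED2 read 50.7, 52.3 and 55.4 CPM in GFP and 82.6, 87.8 and 85.2 CPM in Mut_IDR3, with a clear gap between the groups (log2 0.69 ± 0.05, adjusted p = 3.12e-06). Among 26 described AP-2 targets 6 rose and 1 fell (6 and 2 without the trend). The rises were KRT8, KRT18, CDH1, MMP2, CDKN1A and the growth factor receptor IGF1R (log2 0.55, adjusted p = 9.26e-05), and the fall was KRT14.

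Several of the largest changes lay outside these lists. MECOM, a zinc finger factor of stem and progenitor cells (ENSG00000085276, GRCh38 chr3:169083499-169663618, minus strand), read 40.6, 42 and 43.8 CPM in GFP and 11.4, 13.8 and 13.9 CPM in Mut_IDR3 (log2 -1.69 ± 0.12, adjusted p = 1.08e-06). RIMS2, a synaptic scaffold, read 21.6, 19.2 and 20.7 CPM in GFP and 4.89, 6.39 and 5.31 CPM in Mut_IDR3. Both genes separated the groups by a wide margin. RIMS2 was uneven in the other groups, with 1 WT library at 9.81 CPM and 1 dIDR3 library at 8.64 CPM beside libraries at 20.3 to 24.6 CPM. NRIP1, a nuclear receptor corepressor, fell by 1.12 ± 0.16 (adjusted p = 0.000349), and VSNL1, a neuronal calcium sensor, by 1.13 ± 0.18 (adjusted p = 0.000748).

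Among the rises, ELMO3, an adaptor of cell engulfment and migration, read 4.26, 5.06 and 6.15 CPM in GFP and 13.2, 13.2 and 12.4 CPM in Mut_IDR3 (log2 1.32 ± 0.17, adjusted p = 0.000195). TENM2, a teneurin of neuronal adhesion, read 12.1, 11.9 and 13.1 CPM and 22.6, 24.4 and 28.4 CPM (log2 1.03 ± 0.10, adjusted p = 2.95e-05). DHRS2, a mitochondrial reductase, rose by 1.15 ± 0.17 (adjusted p = 0.000459), ARFGEF3 by 1.15 ± 0.19 (adjusted p = 0.00104) and the calcium-gated chloride channel ANO2 by 1.02 ± 0.16 (adjusted p = 0.000775). IGFBP3, which binds insulin-like growth factors, rose from 3.74 to 6.84 CPM (log2 0.87 ± 0.20, adjusted p = 0.00773). The rise of PLLP, a membrane protein of myelin and epithelia, rested largely on 1 library. It read 12.8, 15 and 35.5 CPM in Mut_IDR3 against 8.1 to 9.13 CPM in GFP (log2 1.28 ± 0.35, adjusted p = 0.0174), and without Mut_IDR3 replicate 3 the log2 change was 0.68 (adjusted p = 0.111). The call was also lost without GFP replicate 2 (1.22, adjusted p = 0.059) or 3 (1.29, adjusted p = 0.06).

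The remaining pathway lists changed in both directions, apart from the ERBB list. Of 17 Notch genes 4 fell and 1 rose (5 and 1 without the GC trend), with the effector HES1 (log2 -0.42, adjusted p = 0.00104), the ligand JAG1 (log2 -0.25, adjusted p = 0.00617) and the receptor NOTCH3 (log2 -0.55, adjusted p = 0.0109) lower and NOTCH2 (log2 0.35, adjusted p = 0.0012) higher. Of 23 Wnt genes 2 rose and 5 fell (3 and 6 without the trend), and of 21 neural crest and neuronal genes 4 rose and 4 fell (3 and 3). The 5 Wnt falls became 1 without Mut_IDR3 replicate 2, 2 without GFP replicate 2 or 3, and 3 without Mut_IDR3 replicate 3 or GFP replicate 1. The 4 neural rises became 1 without Mut_IDR3 replicate 1 or GFP replicate 2, and 2 without Mut_IDR3 replicate 2 or 3 or GFP replicate 1. None of the 12 ERBB receptors and ligands was called (1 rise and 1 fall without the trend).

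Markers of other cell types were near absent. Of 11 fibroblast markers 3 passed the filter and none was called, and their summed level was 15.6 to 16.7 CPM in GFP and 13.5 to 16.8 CPM in Mut_IDR3, with FAP and THY1 at 0 counts. Of 11 leukocyte and endothelial markers 4 passed, with sums of 70.3 to 75.5 CPM and 51.3 to 57.4 CPM that came mostly from CD68, a lysosomal protein that fell (log2 -0.44, adjusted p = 0.00154). PTPRC, CD4, PECAM1 and KDR had no counts. Of 10 glandular markers 7 had no counts, and the sums were 0.145 to 0.9 CPM in GFP and 0.0643 to 0.574 CPM in Mut_IDR3.

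The response to Mut_IDR3 was then set beside that to WT and tested directly. Against WT, 3432 features were higher (23.2%) and 3087 lower (20.9%) in Mut_IDR3, or 2839 and 2967 in a fit of only these 2 groups. The interferon-stimulated genes were mostly lower than in WT, 38 of 46 against 3 higher (median log2 difference -1.76 against 0.03 over all features). GBP6, named above among the falls against GFP, went the other way and was higher than in WT (log2 1.06, adjusted p = 0.00026). OASL stood at 14.7 CPM in GFP, 1397 CPM in WT and 9.41 CPM in Mut_IDR3 (log2 -7.22 against WT, adjusted p = 1.02e-16), and IFIT1 at 16.3, 426 and 7.21 CPM (log2 -5.88, adjusted p = 3.78e-16). For both genes WT lay above GFP and Mut_IDR3 below it. Of the 34 immediate early genes 29 were lower than in WT and 0 higher. Against GFP 12 of them were called higher and 22 were not called. CYR61 stood at 301 CPM in GFP, 490 CPM in Mut_IDR3 and 2061 CPM in WT (log2 -2.07 against WT, adjusted p = 2.03e-14). TFAP2A (log2 -1.24, adjusted p = 1.31e-09) and CITED2 (log2 -0.80, adjusted p = 2.26e-08) were also below WT.

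Some genes were lower than GFP in WT and higher than GFP in Mut_IDR3. MYB, a proto-oncogenic transcription factor, stood at 3.69 CPM in GFP, 0.776 CPM in WT and 6.24 CPM in Mut_IDR3 (log2 3.01 against WT, adjusted p = 2.01e-07), though its rise over GFP (log2 0.75, adjusted p = 0.0233) was lost without Mut_IDR3 replicate 1 (0.60, adjusted p = 0.0994) or 3 (0.75, adjusted p = 0.0592) and without GFP replicate 1 (0.66, adjusted p = 0.0901) or 2 (0.68, adjusted p = 0.0825). IGFBP3 (log2 2.74, adjusted p = 1.89e-07) and CA9 (log2 1.84, adjusted p = 3.9e-07) showed the same order of groups. SOX2, a factor amplified in squamous cancers, read 5.36, 5.43 and 4.14 CPM in GFP and 7.78, 8.63 and 7.96 CPM in Mut_IDR3 (log2 0.71, adjusted p = 0.0514), but 0.105 CPM in WT and 1.27 CPM in dIDR3. SOX2 was higher than in WT (log2 6.20, adjusted p = 5.22e-09) and than in dIDR3 (log2 2.68, adjusted p = 2.66e-05). Of the 30 replication genes 25 were higher than in WT and 0 lower, whereas the 18 tested cyclin and E2F genes gave 7 and 6. MECOM fell in both, but less in Mut_IDR3 (log2 1.03 against WT, adjusted p = 1.29e-05). IL1B stood at 34.5 CPM in WT and 33.3 CPM in Mut_IDR3, and the difference did not pass the test (log2 -0.05 ± 0.11, adjusted p = 0.752).

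Against dIDR3, Mut_IDR3 had 819 features higher (5.54%) and 775 lower (5.24%), or 1074 and 570 with upper-quartile scaling. Leaving out any 1 of the 6 libraries gave 434 to 670 higher and 360 to 473 lower. Interferon-stimulated genes were higher in Mut_IDR3 than in dIDR3 in 19 of 46 cases and lower in 1 (median log2 difference 0.36). GBP6 stood at 10.8 CPM in GFP, 3.65 CPM in Mut_IDR3 and 1.14 CPM in dIDR3 (log2 1.68 against dIDR3, adjusted p = 9.1e-05), whereas IFIT1 did not differ beyond its spread (log2 -0.02 ± 0.09, adjusted p = 0.919). SAA1 (log2 1.93, adjusted p = 0.000574), KLK8 (log2 1.32, adjusted p = 0.00599), the mucin MUC16 (log2 1.56, adjusted p = 0.000138) and the calcium channel TRPV6 (log2 1.53, adjusted p = 3.41e-07) had fallen less in Mut_IDR3. Heat shock genes were lower than in dIDR3 in 10 of 23 cases and higher in 0, with HSPA1A at 129 CPM against 199 CPM (log2 -0.63, adjusted p = 1.02e-05). TENM2 (log2 -1.12, adjusted p = 7.4e-06), FOSL1 (log2 -0.92, adjusted p = 1.14e-06) and CPED1 (log2 -0.99, adjusted p = 9.97e-06) had risen less. Ribosome biogenesis genes were lower in 23 of 46 cases and higher in 0, and Notch genes higher in 7 of 17 and lower in 0. MARCKSL1 stood at 10.5 CPM in GFP, 5.59 CPM in Mut_IDR3 and 11.6 CPM in dIDR3 (log2 -1.05 against dIDR3, adjusted p = 4.02e-05). RIMS2 was also lower than in dIDR3 (log2 -1.69, adjusted p = 0.00468), with the uneven dIDR3 libraries given above.

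**Figure D5:**
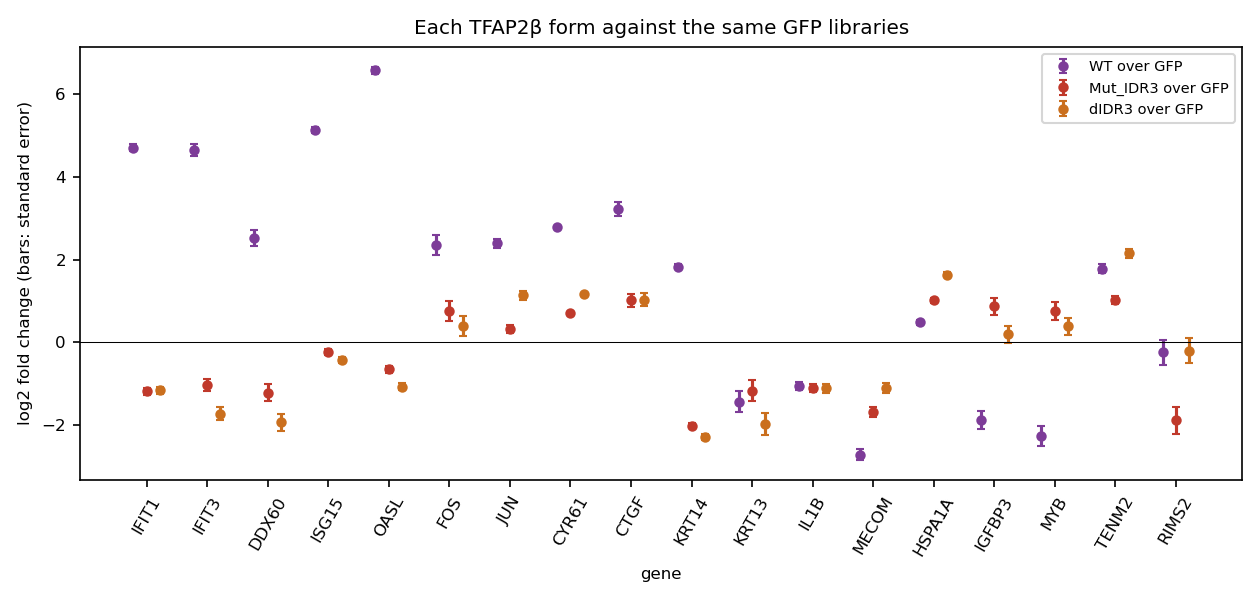
Log2 fold change against the same GFP libraries for WT (purple), Mut_IDR3 (red) and dIDR3 (orange) in 18 genes, with standard errors as bars. The 3 series share the GFP libraries and are shown side by side only. OASL lies at -0.65 for Mut_IDR3, below GFP, while WT lies above it.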

How the data were processed

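Gene-level read counts of 12 RNA libraries, 3 in each of 4 groups, were used as deposited by the authors, with group and replicate taken from the sample titles. Per the labels' protocols total RNA came from RNeasy columns (Qiagen), and 1 µg of it entered a SMARTer mRNA library kit. The submitters' processing notes name Trim Galore, HISAT2, StringTie and GRCh38 (hg38). The counting program, annotation release and strand setting are not given in the sources used here, so reads of overlapping or antisense genes may be shared.

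Of 24302 features (4328 of them named NewGene), 14792 passed filterByExpr in edgeR 4.0.16 (R 4.3.3). All 12 libraries were fitted together with TMM scaling and a term per group (8 residual degrees of freedom), and contrasts were tested with edgeR's quasi-likelihood test and Benjamini-Hochberg adjustment at 0.05 over all features tested. CPM are TMM-scaled. SE is the log2 change divided by the root of F. The exact test of 3 libraries against 3 cannot go below 0.1. The code was tested on simulated counts. GC content and coordinates came from GENCODE v29 (GRCh38), through the longest transcript, and the GC trend was removed per library over 20 bins. Promoters came from RefSeq (GRCh38.p14) for 10200 of 12724 tested Ensembl genes. DESeq2 1.42.0, limma 3.58.1 (voom) and other scalings, filters and left-out libraries served as alternatives.

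Named genes were TFAP2B, TFAP2A, TFAP2C and ZNF131, the 15 largest called rises and falls at 5 CPM or more without overlap of libraries, up to 4 called members per list and direction, and the 8 largest differences from WT and from dIDR3. Not every such gene is described. The members, lists and rules were chosen with earlier results of these data known, so a list's count is no independent support.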

Additional observations from a re-analysis of the deposited data

How the results depend on the processing

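Against GFP, 1657 features were higher and 1457 lower in Mut_IDR3. No such feature was called with the opposite sign in any alternative, and the signs of lost calls were not counted over all features. At an adjusted p under 0.01 the counts were 788 and 561, and at least 2-fold 66 and 92. A fit of only the 2 groups compared gave 2153 and 2224. Leaving out 1 library gave 898 to 1242 higher and 647 to 1139 lower. The replicate block gave 1467 and 1328, and the replicate block with the GC trend removed gave 1014 and 871. Same-numbered libraries of Mut_IDR3 and GFP had correlations of 0.0404, 0.026 and 0.0671 between their deviations from the group means. All were under 0.1, so the numbers were not taken as pairs, although each Mut_IDR3 library correlated best with its own number. Against WT (3432 and 3087), 414 and 558 features differed at least 2-fold, and leaving out 1 library gave 2775 to 3490 and 2641 to 3282. Against dIDR3 (819 and 775), the counts were 325 and 271 under 0.01, 93 and 39 at least 2-fold, 1074 and 570 with upper-quartile scaling, and 434 to 670 and 360 to 473 with 1 library left out. The other alternatives, GC removal alone included, moved the counts of the 3 comparisons by less than 1.5 times. The called features changed more than the counts. Without the GC trend 4663 of the 6519 calls against WT (71.5%) held with the same sign, and 11 were called with the opposite sign. Against dIDR3 1421 of 1594 calls (89.1%) held. Of 117 named genes called against GFP, 103 were called in every alternative, 6 were lost without the GC trend and 11 when some library was left out. FTL against WT turned from -0.15 to 0.0072 with the GC trend removed and to 0.0069 with the replicate block as well, and the cause was not tested. At 30.65 M to 42.9 M counts per library, depth limits genes with few counts, such as TFAP2B in GFP (13 counts in all).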

Other observations

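Called genes were unevenly spread over the chromosomes. On chromosome 16, 19.6% of the tested genes rose and 3.38% fell in Mut_IDR3 against GFP, on chromosome 19 the shares were 19.2% and 4.26%, and on chromosome 22 they were 15.4% and 2.82%. On chromosome 18, 2.4% rose and 20.4% fell, on chromosome 13 the shares were 6.86% and 19.6%, and on chromosome 5 they were 9.36% and 18.4%. Of 368 tested genes named ZNF, which encode zinc finger proteins, 16 rose and 52 fell (median log2 change -0.13). Over all features 11.2% rose and 9.85% fell. These shares were taken from the counts as deposited and were not recomputed without the GC trend. No pair of libraries within Mut_IDR3 or GFP agreed within counting noise: the chi-square per feature was 8.8 to 9.46 for Mut_IDR3 pairs and 9.97 to 10.5 for GFP pairs. WT pairs were less alike, at 18.2 to 38.7, and dIDR3 pairs stood at 10.1 to 15.1. The main fit pooled the spread over all 4 groups.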
